A study of Mus musculus with 16 samples.

Results

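The regions described here are the insides of full-length intracisternal A-particle elements (IAPs) that the study listed as candidates for variable methylation. The study's list of assayed elements holds 103 IAPs in 3 classes, and 40 of them have the structure Full Length. Those on chromosomes 1 to 19 number 38, of which 23 are constitutive variably methylated IAPs (cVM-IAPs), 10 are tissue-specific (tsVM-IAPs) and 5 are false positives. A cVM-IAP varied between mice in ear, a tsVM-IAP in B cells but not in ear, and a false positive in neither. Each element was cut into bins of 500 bp from its lower to its higher mm10 coordinate, which gave 455 bins, 431 of them with at least 3 CpGs. A bin was kept with at least 40 pooled calls in B cells and 40 in T cells, which left 229 bins. A bin whose midpoint lay under 500 bp from the nearer end of the element was taken as long terminal repeat (LTR), and any other as interior. By this rule 87 of 91 LTR bins and 142 of 340 interior bins were kept.

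Whole genome bisulphite sequencing was done on resting CD43- B cells and naive CD4+ CD62L+ T cells, sorted magnetically from spleens of 6 to 8 week old C57BL/6J mice, with no treatment or altered allele in any group. There were 16 libraries, 8 of B cells and 8 of T cells, with 2 for each combination of cell type, sex and assay, where the assay was standard bisulphite (BS) or oxidative bisulphite (oxBS), in which 5-hydroxymethylcytosine is read as unmethylated. The libraries come from pooled mice that are not named, and the protocol oxidised part of each DNA sample, so libraries may share animals or DNA and the p-values below measure the spread between libraries. The 38 elements entered the list through a screen for variable LTR edges in these same libraries, so their LTR levels are not independent of how they were chosen. The class of an element was set by pyrosequencing of other samples.

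Autosomal calls were between 118868248 and 164440353 per library, or 5.83 to 8.07 per reference CpG. The autosomal level was 80.4% ± 0.646 (SD, n = 8) in B cells and 79.1% ± 0.504 (SD, n = 8) in T cells. The promoter of Cd79a, part of the B cell receptor complex, was at 6.15% (B cells) and 75.2% (T cells). That of Cd3e, part of the T cell receptor complex, was at 89.6% and 1.87%. Of the 12 marker promoters examined, the one of the T cell gene Cd28 did not separate the cell types, at 93.2% and 90.8%.

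IAPs are retroviruses that became fixed in the mouse germline. A full-length copy starts and ends with an LTR, and the 5′ LTR carries the promoter from which transcription enters the interior, where gag and pol are encoded. DNA methylation keeps most copies silent in somatic cells, and copies of a subfamily can be nearly the same in sequence, which limits how well short reads can be placed inside them.

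The elements carried 8 LTR types, with 23 IAPLTR1 and 7 IAPEY4 elements as the largest groups. Terminal repeats were found in the reference sequence of 32 elements, between 326 and 476 bases long, and were identical at both ends in 28 of them. No terminal repeat was found in 6 elements, among them the copy named IAP-*Tle1*. Below are 6 stretches of IAPEY4 elements from 1 zone, between 1161 and 1550 bases from the 5′ end, where T cells were lower than B cells in some copies. All sequences are mm10, read 5′ to 3′ along the element, with CpGs in capitals. The first 3 cover the same 150 bases of 3 copies.
IAP-1700049G17Rik (chr7:27940756-27940905, minus strand): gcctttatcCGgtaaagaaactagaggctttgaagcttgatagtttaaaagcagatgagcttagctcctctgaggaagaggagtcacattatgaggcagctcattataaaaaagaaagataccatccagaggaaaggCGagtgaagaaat
IAP-Mrs2 (chr13:25008560-25008709, plus strand): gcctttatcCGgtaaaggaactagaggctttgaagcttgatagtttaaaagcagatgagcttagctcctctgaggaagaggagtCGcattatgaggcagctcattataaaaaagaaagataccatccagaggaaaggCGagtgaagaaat
IAP-Hunk (chr16:90348563-90348712, minus strand): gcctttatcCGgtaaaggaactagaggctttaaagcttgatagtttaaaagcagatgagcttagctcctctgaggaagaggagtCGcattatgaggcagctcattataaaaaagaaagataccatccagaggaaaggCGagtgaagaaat

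IAP-*1700049G17Rik* differs from IAP-*Mrs2* at 2 of these bases and IAP-*Mrs2* from IAP-*Hunk* at 1, and IAP-*1700049G17Rik* has 2 CpGs where both others have 3. The next 3 show the same 74 bases of 3 copies, with 5 CpGs each.
IAP-1700049G17Rik (chr7:27940517-27940590, minus strand): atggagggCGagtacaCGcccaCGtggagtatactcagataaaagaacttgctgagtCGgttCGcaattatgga
IAP-Dydc2 (chr14:41054878-41054951, plus strand): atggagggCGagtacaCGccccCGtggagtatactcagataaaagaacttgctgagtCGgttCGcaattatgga
IAP-9030624G23Rik (chr12:23604462-23604535, minus strand): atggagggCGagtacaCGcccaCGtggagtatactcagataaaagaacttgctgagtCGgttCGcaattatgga

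Over these 74 bases IAP-*1700049G17Rik* and IAP-*9030624G23Rik* are identical, and IAP-*Dydc2* differs from IAP-*1700049G17Rik* at 1 base. The last 3 stretches, of 200 bases, are the most deeply read ones between the terminal repeat and 2 kb from the 5′ end in 3 copies whose first interior bin was low.
IAP-Kcnh6 (chr11:106031954-106032153, minus strand): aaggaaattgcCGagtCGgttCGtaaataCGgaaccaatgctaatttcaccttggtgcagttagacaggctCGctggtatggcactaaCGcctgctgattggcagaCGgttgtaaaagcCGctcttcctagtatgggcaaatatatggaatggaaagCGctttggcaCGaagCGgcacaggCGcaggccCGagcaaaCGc
IAP-Rnf157 (chr11:116390783-116390982, plus strand): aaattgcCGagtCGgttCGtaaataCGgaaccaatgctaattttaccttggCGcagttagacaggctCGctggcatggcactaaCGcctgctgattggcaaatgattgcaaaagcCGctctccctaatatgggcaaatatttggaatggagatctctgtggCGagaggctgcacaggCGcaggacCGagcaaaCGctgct
IAP-Hunk (chr16:90349347-90349546, minus strand): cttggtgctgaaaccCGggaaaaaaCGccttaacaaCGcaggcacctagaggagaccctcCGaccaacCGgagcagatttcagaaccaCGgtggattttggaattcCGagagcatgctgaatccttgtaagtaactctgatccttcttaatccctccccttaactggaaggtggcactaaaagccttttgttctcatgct

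The pooled level of the stretch in IAP-*Kcnh6*, an IAPLTR1 copy, was 25.2% in B cells and 23.1% in T cells over 14 CpGs. In IAP-*Rnf157*, also IAPLTR1, it was 36.4% and 25.1% over 12 CpGs, and in IAP-*Hunk*, which is IAPEY4, 2.24% and 1.94% over 7 CpGs.

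Depth inside the elements was far from even. Interior bins with at least 3 CpGs had a median of 0.331 calls per CpG and library, against 3.33 in LTR bins and 7.47 in the 500 bp on either side of the elements. No call at all was listed in 106 interior bins. For windows of 100 bases lying wholly inside an interior bin, the share that occur once in the reference was taken. The median share was 24.3% in kept bins and 0% in bins with 3 CpGs that were not kept. Windows of the bins not kept had a median of 132.5 copies. Over all 93 LTR bins the median share was 0% (mean 15.5%), with a median of 9 copies. The mean share in kept interior bins was 37.9%, so the LTR levels below rest on sequence that is less often unique. Across the 340 interior bins this share and the calls per CpG rose together (Spearman's rho 0.829, a description over bins that share libraries and elements). The kept bins thus lean towards sequence found once, and 198 interior bins could not be described.

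The part that could be read depended on the LTR type. In IAPLTR1 elements 50 of 199 interior bins were kept, and windows there had a median of 158 copies, whereas 52 of 86 were kept in IAPEY4 elements, with a median of 6 copies. All interior bins with at least 3 CpGs were kept in the RLTR46A2, RLTR46B and IAPLTR4 elements. Among the cVM-IAPs 84 of 208 interior bins were kept, among the tsVM-IAPs 35 of 84 and among the false positives 23 of 48. The 8 bins with 40 to 49 calls in the less covered cell type had medians at 95.0% (B cells) and 94.3% (T cells), and the 9 bins with 32 to 38 calls just outside the limit had 97.0% and 96.7%.

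**Figure D1:**
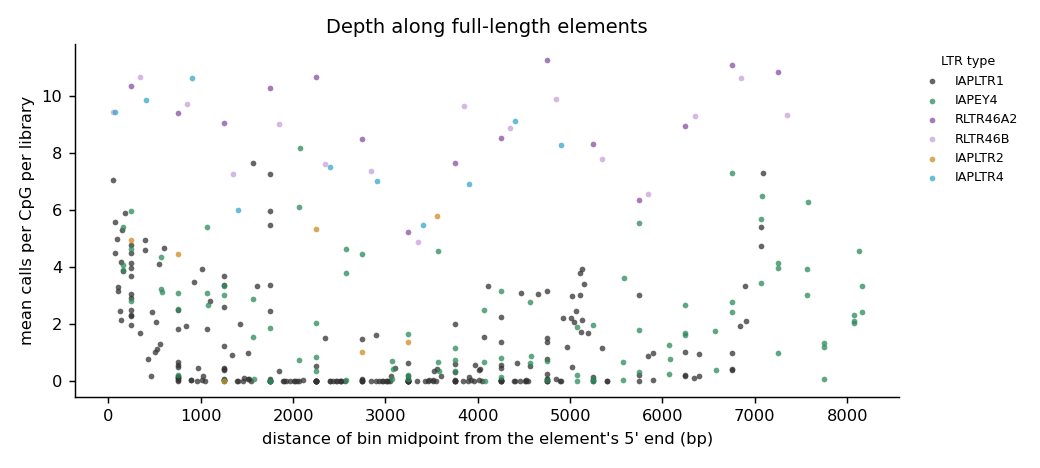
Mean calls per CpG and library (y axis) of each bin with at least 3 CpGs against the distance of its midpoint from the 5′ end of the element in bp (x axis), coloured by LTR type, without the elements shorter than 3 kb and the IAPLTR1a element. Most IAPLTR1 interior bins have few calls, though some within 2 kb of the 5′ end are well covered, while RLTR46A2, RLTR46B and IAPLTR4 bins are covered throughout.

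All 13 interior bins were kept in IAP-*1700030C10Rik* and IAP-*Olfr161*, both cVM-IAPs, and 14 of 15 in the false positive IAP-*1700049G17Rik*. The tsVM-IAP IAP-*Mrs2* kept 9, the cVM-IAP IAP-*Dydc2* and the tsVM-IAP IAP-*Hunk* kept 8 each, and the cVM-IAP IAP-*Ccl28* and the false positive IAP-*Gm20268/Cntnap5b* kept 7 each. IAP-*9030624G23Rik* (tsVM-IAP) kept 6, and IAP-*Kcnh6* (cVM-IAP) and IAP-*Ccr9* (tsVM-IAP) kept 5. The cVM-IAPs IAP-*Nrros*, IAP-*Rnf157* and IAP-*Sfpq* kept 4. Those with 3 were the cVM-IAPs IAP-*Bmf*, IAP-*Gm13849*, IAP-*Snd1*, IAP-*Rims2* and IAP-*P4ha1* and the tsVM-IAP IAP-*Rftn1*. Those with 2 were the cVM-IAPs IAP-*Bex6*, IAP-*Txn2*, IAP-*Aire* and IAP-*Rsg1*, the tsVM-IAP IAP-*Tle1* and the false positive IAP-*Mir30c-2*. Those with 1 were the cVM-IAPs IAP-*Marveld2*, IAP-*Eps8l1* and IAP-*Slc15a2* and the tsVM-IAPs IAP-*Lrfn3* and IAP-*Ube2e2*. No interior bin was kept in the cVM-IAPs IAP-*Tfpi*, IAP-*Mbnl1* and IAP-*Arhgap31*, the tsVM-IAPs IAP-*Nelfa* and IAP-*Apol7e* or the false positives IAP-*3110079O15Rik* and IAP-*Fam32a*, so 31 of the 38 elements have an interior value.

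The label Full Length covers a range of sizes. IAP-*Apol7e* spans 328 bp, about the size of 1 IAPEY4 LTR, and IAP-*Nelfa* spans 978 bp, and neither has an interior bin. IAP-*Tle1* (2021 bp) and IAP-*Rsg1* (2985 bp) are the other elements under 3 kb.

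To compare the LTRs with the interiors, each library's level was taken as the mean over the bins in which it had at least 5 calls. In B cells the LTR level of the 8 libraries ran from 72.0% to 76.1% (median 73.9%) and the interior level from 83.8% to 88.0% (median 85.2%). In T cells the LTR level ran from 68.1% to 73.4% (median 71.9%) and the interior level from 80.2% to 84.9% (median 82.1%). The interior was higher than the LTR in 8 of 8 libraries of each cell type. The LTR minus interior difference was -11.5 points ± 1.33 (SD, n = 8) in B cells and -10.9 ± 1.77 (SD, n = 8) in T cells, each with an exact two-sided sign-flip p of 0.00781, the smallest that 8 libraries can give (adjusted p = 0.00781 over both). The 2 differences were not told apart by an exact permutation test of the libraries (difference -0.57 points, p = 0.476, n = 8 and 8). Which LTRs entered the comparison was set by the screen, as stated above. The gap was unlike between LTR types, and the LTR and interior sets hold different mixes of types. By mean pooled level, 54 LTR bins of IAPLTR1 elements were at 78.9% (B cells) and 75.9% (T cells), and 50 interior bins at 82.2% and 79.9%. In IAPEY4 elements 13 LTR bins were at 55.3% and 54.8%, and 52 interior bins at 89.3% and 85.0%. The gap within a type was not tested.

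**Figure D2:**
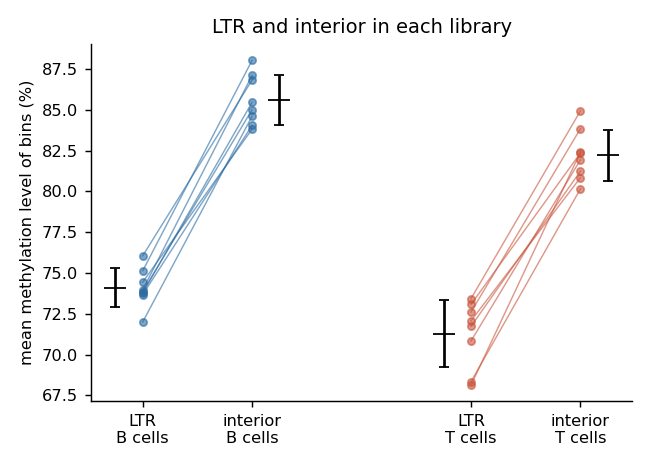
Mean methylation level in % (y axis, from 67 upward) of the LTR bins and the interior bins in each of the 8 B cell and 8 T cell libraries, joined by a line per library. Black bars show the mean and SD over 8 libraries, and every line rises from LTR to interior.

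By bin, 106 of 142 interior bins had a mean of the B and T cell levels of 80% or more, 33 lay between 20% and 80%, and 3 were at 20% or less. Of the 87 LTR bins, 49, 33 and 5 fell in these ranges. The interiors also stood above the 500 bp outside the elements, by 9.40 points ± 1.67 (SD, n = 8) in B cells and 8.01 ± 2.0 (SD, n = 8) in T cells, in 8 of 8 libraries each (exact sign-flip p = 0.00781 for each, adjusted p = 0.00781). With bins of 250 bp, where the flank was also narrowed to the nearest 250 bp, the difference was 19.7 points (B cells) and 17.7 (T cells). The flank was at 76.2% ± 1.28 in B cells and 74.2% ± 2.54 in T cells over 57 flanking bins. The flanks adjoin the LTR edges that the screen used, and the paper reports variable methylation reaching into the sequence beside cVM-IAPs. Flank levels may therefore not be independent of how the elements were chosen. The median interior bin was at 92.7% in B cells and 91.5% in T cells, and the median of all autosomal tiles of 500 bp under the same limits was 92.3% and 91.7%. How the elements compared with the genome depended on CpG density. Under 3 CpGs per 100 bp, which covers 113 of the 142 interior bins, the medians of the mean B and T cell level in 3 density classes were 91.6%, 92.6% and 94.9% in interior bins and 91.4%, 92.3% and 92.9% in genome tiles. At 3 to 5 CpGs per 100 bp, 22 interior bins had a median of 76.4% and 49 LTR bins 75.1%, below the 93.2% of genome tiles. At 5 or more, 7 interior bins had 87.0% and 28 LTR bins 89.3%, above the 1.43% of 33581 genome tiles.

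The ends of an element differed. In 37 elements with both LTRs measured, the median of the mean B and T cell level was 72.2% at the 5′ LTR and 91.7% at the 3′ LTR. The 5′ LTR was the lower one in 27 elements, by 20 points or more in 17, and the 3′ LTR was lower by 20 points or more in 7. The elements were listed through a screen for variable LTR edges in these same libraries. Which LTR was lower is therefore not independent of that choice, and levels beside it may not be either. In IAP-*Hunk* the 5′ LTR was at 0.227% in B cells and 0.783% in T cells while its 3′ LTR was at 88.5% and 85.9%. IAP-*Bex6* was the other way round, with 96.0% and 96.8% at the 5′ LTR and 9.36% and 47.9% at the 3′ LTR. In IAP-*Mbnl1*, which has no kept interior bin, the 5′ LTR was at 46.7% and 45.7% and the 3′ LTR at 88.8% and 61.2%. Both LTRs were low in the false positive IAP-*1700049G17Rik*, at 19.3% and 14.3% (5′) and 9.42% and 3.17% (3′), although its interior was mostly high.

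Within the interiors, most low levels lay within 2 kb of the 5′ end. This split at 2 kb was chosen after the levels had been seen and carries no test. In the 57 interior bins within 2 kb of the 5′ end, from 27 elements, the median was 86.4% in B cells and 82.1% in T cells, and 29 had a mean level under 80%. These 29 were spread over the 2 kb, as 11 of 22 bins at 500 to 1000 bp, 11 of 21 at 1000 to 1500 and 7 of 14 at 1500 to 2000. In the 85 bins farther in, from 23 elements, the medians were 94.2% and 94.0%, and 7 were under 80%. Calls per CpG were alike in the 2 sets, with medians of 3.13 and 3.17, and CpGs were denser in the first, with medians of 2.8 and 1.6 per 100 bp. A terminal repeat reached into 12 interior bins, by at most 105 bases. Among bins clear of it in elements where a repeat was found, 21 of 39 within 2 kb and 3 of 60 beyond were under 80%. This count leaves out the 31 interior bins of the 6 elements with no repeat found, IAP-*1700030C10Rik* among them.

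**Figure D3:**
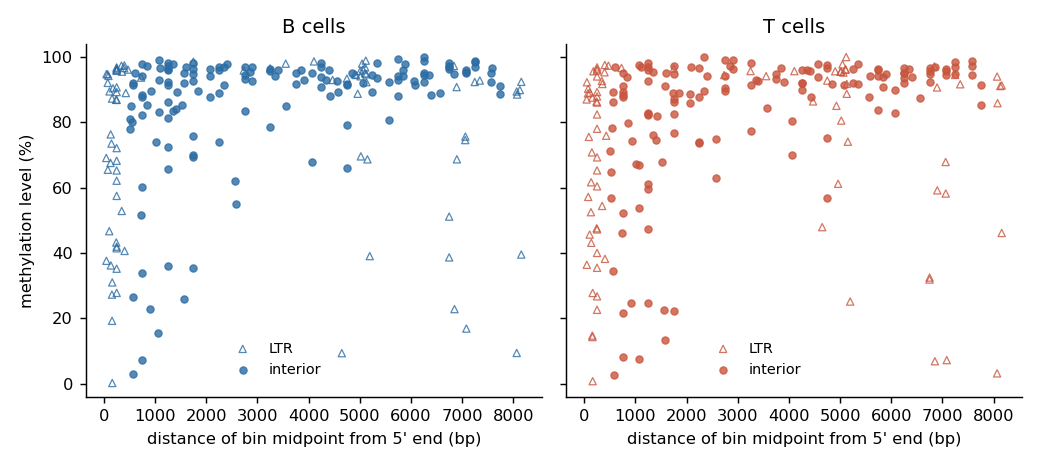
Methylation level in % (y axis) of each kept bin against the distance of its midpoint from the 5′ end of the element in bp (x axis), in B cells (left) and T cells (right). Open triangles are LTR bins and filled circles interior bins. Interior bins under 50% lie within 2 kb of the 5′ end, and interior bins from 5 kb onward are above 80%.

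Among the 26 elements with at least 2 kept interior bins, the lowest mean interior levels were those of IAP-*Rnf157* (42.9% in B cells and 31.3% in T cells), IAP-*Tle1* (46.8% and 34.7%), IAP-*Kcnh6* (51.3% and 48.6%) and IAP-*Rsg1* (73.3% and 67.5%). The highest were those of IAP-*Mir30c-2* (97.2% and 96.5%), IAP-*Ccr9* (97.3% and 96.2%), IAP-*Rftn1* (96.2% and 96.4%) and IAP-*Bex6* (96.4% and 95.0%). Each such mean covers only the bins that could be read.

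IAP-*Kcnh6* lies in an intron of Kcnh6, on the strand opposite to the gene. Its 3 kept bins within 2 kb of the 5′ end were at 26.7%, 15.7% and 26.0% in B cells and 34.6%, 7.50% and 22.6% in T cells. Its 5′ LTR was also low, at 27.3% in B cells and 14.7% in T cells. Its 2 kept bins centred 4065 and 4565 bases from the 5′ end were at 95.2% and 92.7% in B cells and 80.3% and 97.7% in T cells. Of the 4 bins between these sets, none of which was kept, 2 had no call. The other 2, centred 3065 and 3565 bases from the 5′ end, were at 100% (15 calls) and 96.3% (54 calls) in B cells and at 33.3% (9 calls) and 65.6% (32 calls) in T cells, so the end of the low stretch could not be placed. IAP-*Rnf157*, in an intron of Rnf157 and also opposite to the gene, was low in 3 bins in a row, at 33.8%, 36.1% and 35.4% in B cells and 21.5%, 24.7% and 22.1% in T cells. Its kept bin near the 3′ LTR was intermediate, at 66.1% and 56.8%.

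In IAP-*Hunk* the first interior bin was at 2.93% in B cells and 2.73% in T cells, with every library between 0% and 6.56%. The next bin was at 83.0% and 66.9%, the one after it was not kept, and the next kept one was at 96.4% and 97.1%. The bin beyond that was lower again, at 55.1% and 63.0%. IAP-*Tle1* was at 7.23% and 8.30% in the bin centred 750 bases from the 5′ end. In IAP-*Gm20268/Cntnap5b*, a false positive, the first interior bin was at 22.9% and 24.7% and the next kept one at 84.1% and 74.7%. The stretch under 50% in both cell types therefore differed between copies, from 1 bin in IAP-*Hunk* to at least 3 bins in IAP-*Kcnh6* and IAP-*Rnf157*. In contrast, the cVM-IAP IAP-*Olfr161* had a 5′ LTR at 49.4% in B cells and 50.3% in T cells, while its 13 interior bins ran from 83.5% to 96.1% and from 76.3% to 97.4%.

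The dispersion of the model had a similar layout. It is near 1 where libraries differ by no more than the counting error of independent calls. Its median was 1.98 in interior bins within 2 kb of the 5′ end and 1.03 beyond, and it was over 2 in 27 of 57 and 4 of 85 bins. Several CpGs on 1 read can also raise it, and CpGs were denser within 2 kb. How much of it is spread between libraries was not tested. The 3 interior bins with the largest dispersion were in IAP-*Marveld2* (16.6), IAP-*Eps8l1* (16.3) and IAP-*Rsg1* (14.8), all next to the 5′ LTR. In the bin of IAP-*Rsg1*, 8 B cell libraries lay between 32.7% and 80.5% (median 45.3%) and 8 T cell libraries between 21.2% and 74.6% (median 35.1%), with between 30 and 139 calls per library. The bin of IAP-*Marveld2* ran from 0% to 100% in B cells (median 94.1%, 7 libraries) and from 0% to 100% in T cells (median 62.8%, 8 libraries). That of IAP-*Eps8l1* also ran from 0% to 100% in each cell type (medians 97.2% and 81.4%, 7 and 6 libraries). In IAP-*Marveld2* the median library had 14 calls in B cells and 22.5 in T cells over 18 CpGs, and calls on 1 read are not independent, so a few molecules can set such values. A terminal repeat takes up 81 and 91 bases of these last 2 bins.

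The order of the libraries at the 5′ LTR and in the nearest kept interior bin within 2 kb was compared in each cell type, over 6 to 8 libraries an element. Spearman's rho was above 0 in 12 of 16 cVM-IAPs in B cells (median 0.323) and in 13 of 17 in T cells (median 0.476). In tsVM-IAPs it was above 0 in 3 of 6 in each cell type, with medians of 0.07 and -0.12. In false positives it was above 0 in 3 of 3 in B cells (median 0.18) and in 0 of 3 in T cells (median -0.29). The highest values were 0.929 in IAP-*Snd1* (T cells) and 0.786 in IAP-*Rnf157* (B cells), and the lowest were -0.833 in IAP-*9030624G23Rik* (B cells) and -0.736 in IAP-*Ccr9* (T cells), both tsVM-IAPs. Among cVM-IAPs the lowest was -0.667 in IAP-*Kcnh6* (T cells). These are descriptions with no test, and where the repeat reaches into the interior bin the 2 bins share sequence.

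The IAPLTR types and the classes were compared over libraries. The tests below ask whether the libraries agree on a difference between these fixed sets of bins, and do not cover the spread between elements, which was larger. The interior of IAPLTR1 elements was at 81.6% ± 4.46 (SD, n = 8) in B cells and 78.6% ± 4.04 in T cells, and that of IAPEY4 elements at 89.3% ± 1.04 and 84.7% ± 0.925. IAPLTR1 minus IAPEY4 was -7.62 points ± 5.0 (SD, n = 8) in B cells and -6.08 ± 4.39 in T cells, with IAPLTR1 the lower one in 8 of 8 libraries each (exact sign-flip p = 0.00781, adjusted p = 0.0156 over 6 comparisons, 3 for each cell type). With calls pooled over all bins the difference was -14.0 and -11.9 points, and over bins with at least 5 calls in all libraries -11.7 and -10.1. The kept bins of the 2 types are not spread alike along the element: of the 50 IAPLTR1 bins, 31 lay within 2 kb of the 5′ end, against 13 of 52 in IAPEY4. From 5 kb onward the medians were 98.1% and 95.4% in 6 IAPLTR1 bins and 94.5% and 94.5% in 26 IAPEY4 bins. At 1000 to 1500 bp, 12 IAPLTR1 and 5 IAPEY4 bins had medians at 90.5% and 92.9% (B cells) but 82.7% and 59.6% (T cells). At 500 to 1000 and 1500 to 2000 bp IAPLTR1 was the lower type for both cell types. The median kept bins of the types lay closer than the means, at 91.7% and 92.9% (B cells) and 91.2% and 91.5% (T cells). The IAPLTR1 mean includes the low elements IAP-*Kcnh6* (5 bins) and IAP-*Rnf157* (4 bins), and the gap without them was not tested.

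By class, the interiors of cVM-IAPs were at 84.2% ± 2.21 (SD, n = 8) in B cells and 81.5% ± 2.47 in T cells, those of tsVM-IAPs at 88.5% ± 1.12 and 84.8% ± 1.69, and those of false positives at 86.7% ± 1.83 and 81.0% ± 1.52. Most of the 23 false positive bins are in IAP-*1700049G17Rik*. They include its called bins, at 92.0% and 92.9% in B cells and 13.3% and 53.8% in T cells. The level of cVM-IAPs minus that of tsVM-IAPs was -4.30 points ± 2.47 in B cells, below 0 in 8 of 8 libraries (exact sign-flip p = 0.00781, adjusted p = 0.0156), and -3.29 ± 2.79 in T cells, below 0 in 7 of 8 libraries (exact sign-flip p = 0.0156, adjusted p = 0.0234). With calls pooled over all bins, in place of each bin counting once, the direction turned. The difference was then 2.20 points in B cells (exact sign-flip adjusted p = 0.0117, n = 8) and 1.86 in T cells (adjusted p = 0.125, n = 8). The order of these classes thus depends on how bins are weighted. With bins of 250 bp the differences were -2.04 and -0.30 points and did not pass (exact sign-flip adjusted p = 0.0703 and 0.742), and without the elements under 3 kb they were -6.66 and -6.14, and -7.31 and -7.55 with LTRs taken from the terminal repeat. Over bins with at least 5 calls in all libraries they were -2.62 (exact sign-flip adjusted p = 0.0234) and -1.01, which did not pass (adjusted p = 0.266). The level of cVM-IAPs minus that of false positives was -2.50 points ± 2.18 in B cells (exact sign-flip p = 0.0234, adjusted p = 0.0281, n = 8), and leaving out replicate 1, 2, 4, 10, 11 or 12 moved the adjusted p to 0.0563. It was 0.81 with bins of 250 bp (exact sign-flip adjusted p = 0.384, n = 8), -4.79 with pooled calls and -4.96 at 80 calls per cell type. In T cells the difference was 0.51 ± 3.10 points (exact sign-flip p = 0.625, n = 8), and alternatives passed the threshold in both directions. It was -2.70 with pooled calls (exact sign-flip adjusted p = 0.0187), -3.03 over bins with at least 5 calls in all libraries (adjusted p = 0.0375) and 3.37 with bins of 250 bp (adjusted p = 0.0469).

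The test of B against T cells in a bin came from a quasi-binomial model fitted to all 2828058 autosomal tiles and element bins. Calls needed a gap of 20 points or more with an adjusted p below 0.05. Of the 229 bins, 6 were called, or 2.62%, while 2.85% of the genome tiles were (1.83% with B cells above T cells, 1.02% the reverse), so the elements hold about as many called bins as the genome. The 6 lie in 5 elements. Among the 142 interior bins 5 were called, all higher in B cells, and among the 87 LTR bins 1, higher in T cells. With no limit on the gap 8 bins passed, beside 5.29% of genome tiles. At an unadjusted p under 0.05 there were 33 bins, or 18 interior and 15 LTR bins, beside 13.1% of genome tiles.

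**Figure D4:**
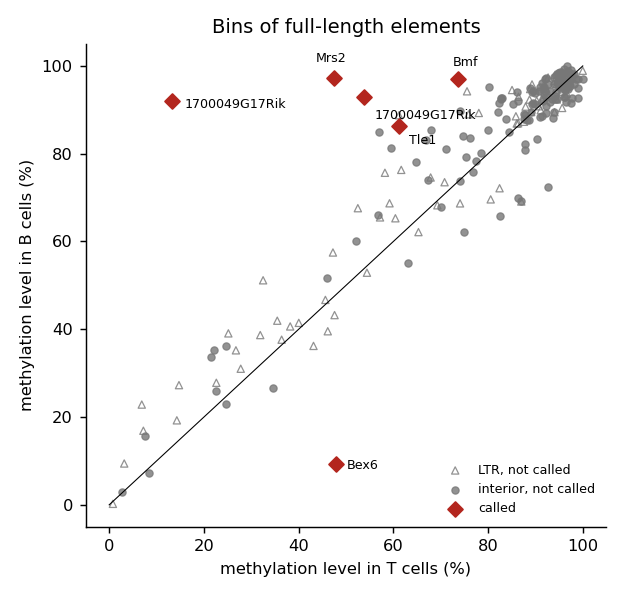
Methylation level in % of each kept bin in B cells (y axis) against T cells (x axis), with the line of equal levels. Open triangles are LTR bins, grey circles interior bins and red diamonds the 6 called bins, 5 above the line and the 3′ LTR bin of IAP-Bex6 below it.

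Of the called bins 2 were in IAP-*1700049G17Rik*, an IAPEY4 element between genes on chromosome 7. In the bin at chr7:27940246-27940745, the 6 B cell libraries with at least 5 calls lay between 83.3% and 100% (median 93.2%) and the 8 T cell libraries between 5% and 24% (median 10.8%), with no overlap. Pooled levels were 92.0% and 13.3% (adjusted p = 3.86e-06 by the quasi-binomial model). In the neighbouring bin at chr7:27940746-27941245 the B cell libraries lay between 90% and 96.6% (median 93.1%) and the T cell libraries between 30.4% and 68.8% (median 55.6%), again apart. Pooled levels there were 92.9% and 53.8% (adjusted p = 8.99e-05 by the quasi-binomial model). This element is listed as a false positive.

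Another called bin was in IAP-*Mrs2*, an IAPEY4 element in an intron of Mrs2, which encodes a mitochondrial magnesium channel. At chr13:25008400-25008899 the B cell libraries lay between 91.7% and 100% (median 96.3%) and the T cell libraries between 22.2% and 71.4% (median 50.6%), and did not overlap. The pooled levels were 97.2% and 47.4% (adjusted p = 7.05e-05 by the quasi-binomial model). The 3 bins lie in the same zone of the element, with midpoints between 1070 and 1570 bases from its 5′ end. In the bin of IAP-*Dydc2* there, B cell libraries lay between 65.4% and 100% and T cell libraries between 29.6% and 78.6%, with overlap. Its pooled levels, 81.3% and 59.6%, did not give a call (adjusted p = 0.155 by the quasi-binomial model).

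The CpGs show where in the zone the cell types part. In IAP-*1700049G17Rik*, 7 CpGs between 1170 and 1538 bases from the 5′ end held 1.95% methylated calls in T cells (of 257) and 91.6% in B cells (of 143). In the first 150 bases printed above it was at 90.7% in B cells and 4.85% in T cells, and in the 74 bases at 92.6% and 0%, where 0 of 154 T cell calls were methylated. If calls were independent this would allow a level of up to 1.95%. Calls from 1 read are not independent, so the level allowed is higher. In IAP-*Mrs2* the 3 CpGs of the first stretch were at 95.1% in B cells (102 calls) and 12.4% in T cells (105 calls), and the CpGs from 1484 to 1538 bases had no call. In IAP-*Hunk*, whose stretch differs from that of IAP-*Mrs2* at 1 base, they were at 87.6% and 75%. In IAP-*Dydc2* the 2 CpGs of the first stretch, at 1171 and 1299 bases, were at 94.1% or more in both cell types, whereas the 74 bases farther in were at 80.6% in B cells and 51.0% in T cells. IAP-*9030624G23Rik*, identical to IAP-*1700049G17Rik* over the 74 bases, was at 100% (23 calls) and 92.6% (27 calls) there, and IAP-*Ccl28* had 2 calls in the zone. The same sequence was thus read with unlike levels in different copies. The zone was noticed in the data, so these CpG values carry no test, and whether some of the calls come from reads of other copies was not tested.

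**Figure D5:**
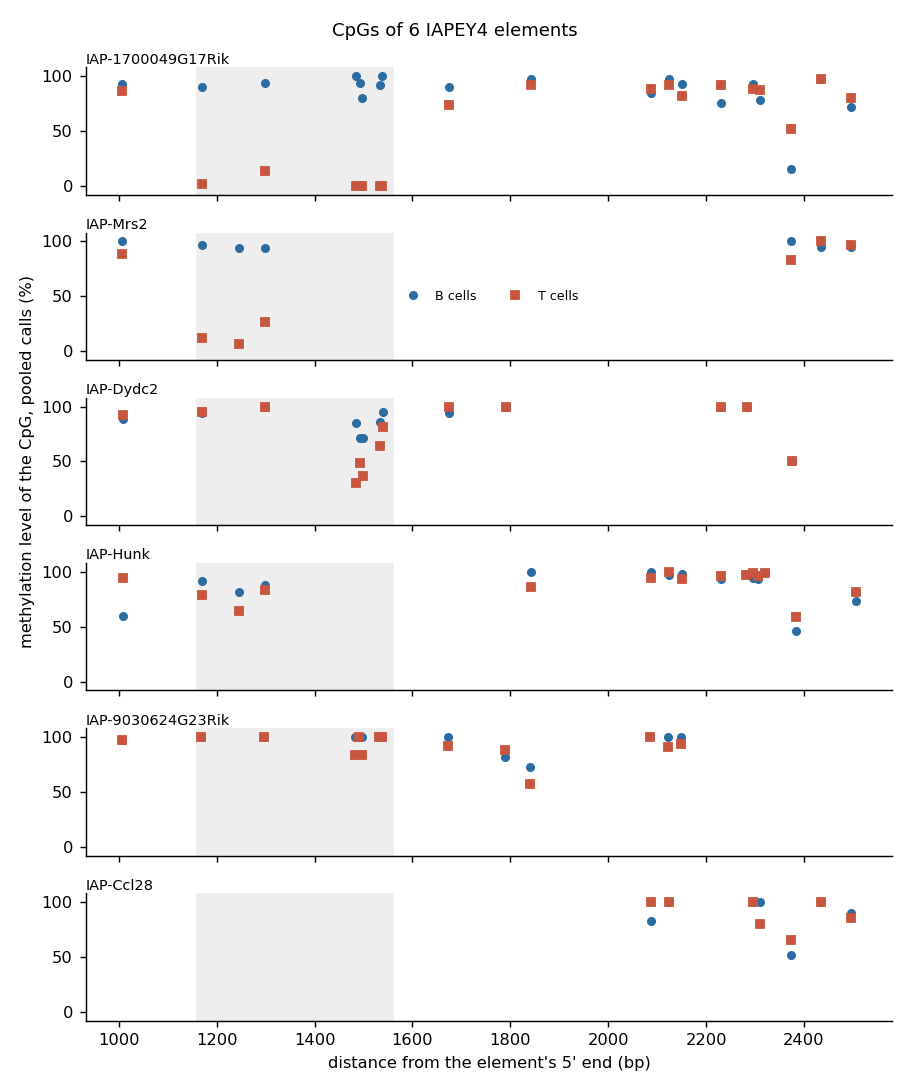
Pooled methylation level in % (y axis) of each CpG with at least 4 calls in each cell type against its distance from the 5′ end in bp (x axis) in 6 IAPEY4 elements, B cells as blue circles and T cells as red squares. In the shaded zone T cells are near 0% in IAP-1700049G17Rik and low in IAP-Mrs2, part of the way down in IAP-Dydc2, and high in IAP-9030624G23Rik.

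Of the other called bins, IAP-*Bmf* (IAPLTR2, between genes) had one at chr2:118556766-118557265, where B cell libraries lay between 93.8% and 100% (median 97.0%) and T cell libraries between 47.6% and 88% (median 73.8%), with no overlap. Pooled levels were 97.0% and 73.7% (adjusted p = 0.000135 by the quasi-binomial model). In IAP-*Tle1* the bin at chr4:71292216-71292715, just past the low one, had B cell libraries from 75% to 97.9% (median 84.4%) and T cell libraries from 42.3% to 70% (median 68.2%), also apart. There the pooled levels were 86.4% and 61.1% (adjusted p = 0.00119 by the quasi-binomial model). These bins hold 7 and 8 CpGs.

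The bin that was higher in T cells was the 3′ LTR of IAP-*Bex6* at chr16:32200038-32200340. There 8 B cell libraries ran from 0% to 50% (median 6.81%) and 8 T cell libraries from 31.7% to 68.1% (median 49.3%), and the groups overlapped through 1 B cell library, replicate 12, at 50%. The pooled levels were 9.36% and 47.9% (adjusted p = 0.0212 by the quasi-binomial model), and the call was lost without T cell replicate 13 (difference -37.8 points, adjusted p = 0.0532 by the same quasi-binomial model) and without B cell replicates 1 and 4 (-37.4 points, adjusted p = 0.106). Its 2 kept interior bins and its 5′ LTR were at 94.9% or more in both cell types.

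Over the kept interior bins, B cells were above T cells by a mean of 3.40 points (85.6% ± 1.54 against 82.2% ± 1.57, SD, n = 8 and 8, exact permutation p = 0.00124, adjusted p = 0.00233). Over the LTR bins the difference was 2.83 points (74.1% ± 1.18 against 71.3% ± 2.04, exact permutation p = 0.00233, adjusted p = 0.00233). The median difference of pooled levels per bin was smaller, 1.09 points in interior bins and 1.38 in LTR bins. The interior mean includes the 5 called bins, whose gaps ran from 23.3 to 78.7 points. With calls pooled over all bins the differences were 2.09 points for the interiors (exact permutation adjusted p = 0.0426) and 1.91 for the LTRs (exact permutation adjusted p = 0.0704). The BS libraries alone gave 2.26 and 0.74 points and neither passed (exact permutation adjusted p = 0.286 for each, n = 4 and 4), and the oxBS libraries alone gave 4.54 and 4.92 (exact permutation adjusted p = 0.0286 for each, n = 4 and 4). The autosomes as a whole differed by 1.31 points in the same direction. Within 2 kb of the 5′ end the interior was at 76.5% ± 3.79 in B cells and 69.2% ± 3.62 in T cells, 7.34 points apart, and beyond it at 91.8% ± 0.562 and 91.1% ± 0.905, 0.684 points apart, a description along the split chosen after seeing the data. The set within 2 kb holds 4 of the 5 called interior bins. The 2 B cell libraries with the lowest and the highest interior levels were at 83.8% and 88.0%, and the T cell libraries reached 84.9%, so the groups overlapped.

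No difference in interior level between assays or sexes passed the test. BS minus oxBS was -0.73 points in B cells (exact permutation p = 0.571, n = 4 and 4) and 1.56 in T cells (exact permutation p = 0.2, n = 4 and 4), and male minus female was -1.10 (exact permutation p = 0.314) and -0.84 points (exact permutation p = 0.457, n = 4 and 4 each). The smallest p this design allows is 0.0286 before adjustment. After adjustment over both cell types, a difference in 1 cell type alone could not pass. The limit given beside the count of 0 covers counting error only, and calls from 1 read or from PCR copies are not independent.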

How the data were processed

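Per the labels and the study's methods, the authors trimmed reads with Trim Galore 0.6.0, mapped them to mm10 (GRCm38) with Bismark 0.20.0 and used only alignments of MAPQ 10 or more for the calls, and their notes also name SAMtools 1.3.1. They deposited, per library and CpG, counts of unmethylated and methylated calls with both strands added and no normalization. Reads that fit several copies of an element equally well have a low MAPQ and are lost to such a filter. Autosomal positions at which the reference has no CpG, 43070 to 59226 in a library, were dropped.

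Bins followed the rule at the head of the report, with genes from GENCODE vM21. An element's strand came from the bisulphite primers, the assayed LTR and shared 16-mers, and both ways agreed in 33 of 33 elements. Library levels were compared by exact two-sided sign-flip tests within libraries and exact permutation tests between groups of libraries, with Benjamini-Hochberg adjustment within each family of comparisons. B and T cells were compared per bin by logistic regression with quasi-binomial errors, terms for sex and assay, a dispersion floor of 1, an F test and adjustment over all 2828058 tiles and bins. The tests were checked on simulated data. Marker promoters were 500 bp on either side of the start.

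The named elements were all elements once by the number of kept bins, the called bins, the 4 highest and 4 lowest mean interiors among elements with 2 or more kept interior bins, the 3 interior bins of largest dispersion, IAP-*Marveld2*, IAP-*Mbnl1*, IAP-*Rnf157* and IAP-*Bex6*, and elements under 3 kb. IAP-*Dydc2*, IAP-*Hunk*, IAP-*9030624G23Rik*, IAP-*Ccl28*, IAP-*Olfr161* and IAP-*Gm20268/Cntnap5b* were singled out after their values were seen. The members, lists and tests were chosen with earlier results of these data known. Full-length elements on the X chromosome were not analysed here. Alternatives covered call and CpG limits, bin width and origin, the LTR rule, weighting, the model's terms, an exact permutation test per bin over libraries with at least 5 calls, each assay alone and each library left out. Python 3.11.15, NumPy 2.4.6, pandas 2.3.3, SciPy 1.17.1, numba 0.67.0, Biopython 1.88 and matplotlib 3.10.9 were used.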

Additional observations from a re-analysis of the deposited data

Results flagged for a closer look

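In 34 groups of libraries tested, 4 had 1 library far from the others. The cut-off would flag about 1 in 20 groups by chance if values were independent and normally spread. Single bins with few calls and nested sets of bins do not meet this, so the 4 cannot be set against that rate. The interior level of IAPEY4 elements was 91.5% in B cell replicate 1, against 87.9% to 89.6% in the other 7 B cell libraries. In the bin of IAP-*Marveld2* next to the 5′ LTR, B cell replicate 1 was at 0% while 6 other B cell libraries lay between 88.9% and 100%. In the like bin of IAP-*Eps8l1*, B cell replicate 10 was at 0% and 6 others between 81.8% and 100%. In the 3′ LTR bin of IAP-*Bex6*, B cell replicate 12 was at 50% and the other 7 between 0% and 14.3%.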

How the results depend on the processing

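Of 492 values computed under alternatives for 23 results, 433 kept their direction and their side of the threshold. Leaving out 1 library at a time, LTR minus interior lay between -11.8 and -11.3 points (B cells) and between -11.2 and -10.5 (T cells), interior B minus T from 3.05 to 3.79, and the count of called bins from 5 to 7. The comparison of cVM-IAPs with false positives lay between -2.99 and -2.06 (B cells) and between -0.14 and 1.21 (T cells), where leaving out replicate 15 gave -0.14.

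Pooling calls over all bins turned cVM-IAPs minus tsVM-IAPs to 2.20 points in B cells and 1.86 in T cells, cVM-IAPs minus false positives in T cells to -2.70, and left LTR B minus T at 1.91 (adjusted p = 0.0704 by the exact permutation test). With bins that had at least 5 calls in all libraries, cVM-IAPs minus tsVM-IAPs in T cells was -1.01 (exact sign-flip adjusted p = 0.266) and cVM-IAPs minus false positives -3.03. The latter was -0.43 at 20 calls per cell type and -0.89 at 80. With bins of 250 bp, cVM-IAPs minus tsVM-IAPs was -2.04 in B cells and -0.30 in T cells, and cVM-IAPs minus false positives 0.81 and 3.37. With LTRs taken from the terminal repeat the latter was -2.23 and -0.43. Without replicates 1 and 4, the male BS libraries of B cells that list no contigs, cVM-IAPs minus false positives was -1.97 in B cells and BS minus oxBS 0.31. Other shifts kept the call and were over 1.5 times. With LTRs from the terminal repeat, cVM-IAPs minus tsVM-IAPs was -7.31 and -7.55, and without elements under 3 kb -6.66 and -6.14. With bins that had at least 5 calls in all libraries it was -2.62 in B cells, and cVM-IAPs minus false positives in B cells was -4.0. The latter was -4.79 with pooled calls and -4.96 at 80 calls per cell type. IAPLTR1 minus IAPEY4 was -14.0 and -11.9 with pooled calls and -11.7 and -10.1 with calls in all libraries. Interior minus flank was 19.7 and 17.7 with bins and flanks of 250 bp, and interior B minus T was 2.09 with pooled calls. The cause of these shifts was not tested.

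Each assay alone leaves 4 libraries per cell type, where the smallest exact p is 0.125 within libraries and 0.0286 between groups. BS alone and oxBS alone gave -11.7 and -11.3 for LTR minus interior in B cells and -10.2 and -11.7 in T cells, 8.80 and 10.0 for interior minus flank in B cells and 6.68 and 9.34 in T cells, -9.39 and -5.86 for IAPLTR1 minus IAPEY4 in B cells and -5.32 and -6.85 in T cells, -5.34 and -3.26 for cVM-IAPs minus tsVM-IAPs in B cells and -3.50 and -3.09 in T cells, -4.15 and -0.86 for cVM-IAPs minus false positives in B cells, and 1 called bin each. BS alone gave 2.26 for interior B minus T and 0.74 for LTR B minus T, and oxBS alone 4.54 and 4.92. The called bin that remained in both was chr7:27940246-27940745 of IAP-*1700049G17Rik*.

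The count of called bins was between 4 and 8 under the other alternatives. An exact permutation test of library levels in each tile and bin called 6 bins, the same 6 as the model, and 2.83% of genome tiles. No paired analysis was possible because no replicate number occurs in more than 1 group. Depth leaves 198 interior bins undescribed, most of them in repeated sequence.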

Other observations

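One CpG about 2374 bases from the 5′ end of IAPEY4 elements was read at intermediate levels in several copies. Its 42 surrounding bases are identical in 5 copies. It was at 52% in B cells and 65.4% in T cells in IAP-*Ccl28* (25 and 26 calls), at 46.2% and 59.0% in IAP-*Hunk* (65 and 78 calls) and at 15.2% and 52.2% in IAP-*1700049G17Rik* (33 and 46 calls). CpGs within 130 bases were at 72.2% or more in these 3 copies in both cell types. In IAP-*Mrs2* it was at 100% and 83.3%, with 8 and 6 calls. The CpG was picked after its values were seen, and no test was run.

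Of the 7 interior bins under 80% that lie beyond 2 kb of the 5′ end, 3 are in IAP-*1700030C10Rik*, an RLTR46A2 element read along its whole length, whose 13 interior bins lay between 73.9% and 98.1% (B cells) and between 74.1% and 97.3% (T cells).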
